A study of Rattus norvegicus with 2 samples.

Results

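Polyamine metabolism is described here by 10 genes of the rat kidney, of 29516 gene rows in the deposited table. They were chosen by name, with the values of both diets known: Odc1, Amd1, Srm and Sms for synthesis, Sat1, Smox and Paox for acetylation and oxidation, and Oaz1, Oaz2 and Azin1 for the control of ornithine decarboxylase. Of these, 9 are listed under their symbols. The row of Oaz2 is listed as LOC690789, is described in the deposited table as antizyme 2, and was matched to Oaz2 by its RefSeq protein accession. All 10 reached a mean FPKM of 1 over both diets, the limit used for all genes (FPKM count fragments relative to the length of the transcript and the mapped total of the library).

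Kidneys came from F344 rats, an inbred laboratory strain, of the NIA ageing colony. Feeding began at 16 months of age, lasted 4 months and ended at 20 months, with casein as the control diet or with 14% soy in the diet, and 1 library stands for each. The sources used here do not state the sex of the rats, the part of the kidney taken or any pooling of animals. The design asks how soy acts on chronic kidney disease of aged rats. With 1 library per diet there is no spread between replicates and no test of diet, so each difference below is a description of 2 libraries.

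Putrescine, spermidine and spermine are small positively charged molecules that bind nucleic acids and are needed for translation and growth. Ornithine decarboxylase makes putrescine from ornithine, and S-adenosylmethionine decarboxylase supplies the aminopropyl groups that turn putrescine into spermidine and spermidine into spermine. Antizymes, whose synthesis needs a ribosomal frameshift favoured by polyamines, bind ornithine decarboxylase and carry it to the proteasome, so its protein level does not follow from its messenger RNA alone. In the mouse kidney, androgens strongly induce Odc1 in the proximal tubule.

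Odc1, which encodes ornithine decarboxylase, was the only member at least 1.5-fold different between the diets. It had 197 FPKM with casein and 437 FPKM with soy, a 2.22-fold higher level and a difference of 240 FPKM (log2 1.15, from log2((soy + 0.1)/(casein + 0.1)), the scale of all log2 values here). The other 9 members all lay within 1.3-fold, and 7 of them within 1.1-fold. Among the 14077 genes that reached the limit of 1 FPKM, 3.43% were at least 1.5-fold higher with soy and 8.08% at least 1.5-fold lower. Without short RNAs, an omission added after the data were seen, these shares were 2.37% and 7.23%. The count of 1 higher and 0 lower among 10 members stands beside that background, and nothing is read from it because the members were chosen with these values known. The median log2 of the members was 0.02, against 0.01 for all genes.

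**Figure D1:**
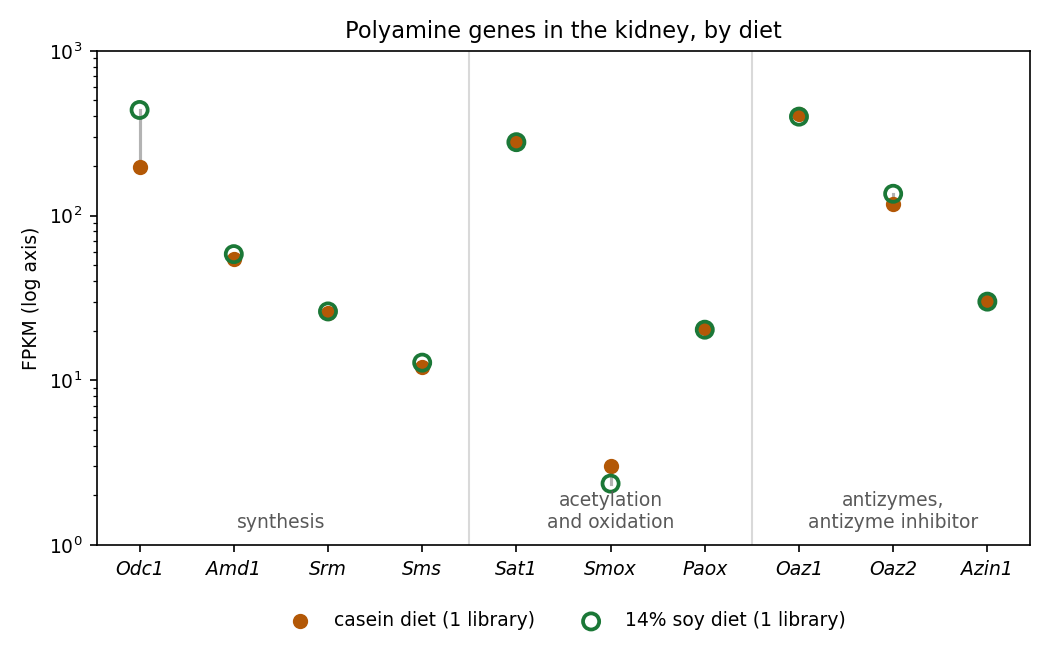
FPKM of the 10 polyamine genes on a log axis, with filled points for the casein library and open rings for the soy library (1 library each, so no error bars). Odc1 goes from 197 to 437 FPKM, while the points of the other genes overlap or nearly overlap.

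The order of levels placed Odc1 behind Oaz1 and Sat1 with casein and above all other members with soy. Among all genes, 573 had a higher FPKM than Odc1 with casein and 239 with soy. Of 603 genes whose mean lay within 2-fold of the mean of Odc1 (317 FPKM), Odc1 had the highest log2 value, and the median absolute log2 value of these genes was 0.15. Of 1176 genes whose mean FPKM was 100 or more, 2 had a higher log2 value than Odc1, and both are short RNAs. These ranks use the same values that led to the choice of Odc1 and are not evidence of a diet effect.

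**Figure D2:**
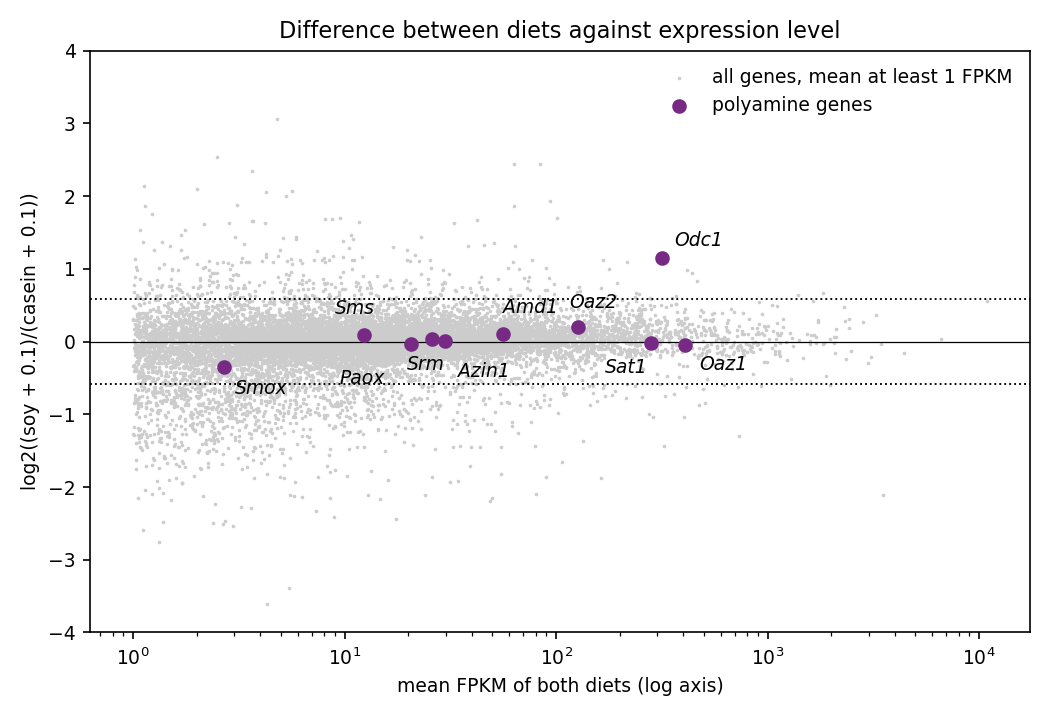
Log2 ratio of soy over casein (with 0.1 FPKM added to both) against the mean FPKM of both diets, for all genes above the limit of 1 FPKM (grey) and the 10 polyamine genes (purple). Dotted lines mark 1.5-fold, and 215 genes with an absolute log2 value above 4 are not drawn. Odc1 lies above the cloud of genes of its level and the other members lie between the dotted lines.

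In the authors' deposited table Odc1 has p = 0.000559 and q = 0.0599 and is not marked significant. The sources used here do not name the test. With 1 library per diet, its p and q values cannot measure spread between replicates. The authors' deposited table marks 0 of the 10 members, against 0.848% of the 17450 rows with status OK. The 18 genes that the authors' deposited table marks as higher with soy all have a smaller p than Odc1, and no unmarked gene higher with soy does. Over both directions, 14 unmarked genes have a smaller p than Odc1, and 162 genes have a smaller q. The highest marked q in the authors' deposited table is 0.0496. For the other 9 members the p in the authors' deposited table runs from 0.401 to 0.989. The second deposited table, of 145 transcripts that the authors mark as different, holds 0 of the 10 genes.

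The files place Odc1 on chromosome 6, bases 41309210 to 41315794, on a build that the sources used here do not name. A row named SNORA42, a small nucleolar RNA, is listed with exactly the same coordinates, at 0 FPKM with casein and 11.3 FPKM with soy. Of 19 rows with that name, 4 were listed at 0 with casein only and 1 with soy only. Whether fragments were shared between it and Odc1 was not tested. Rodent genomes also hold processed copies of Odc1, and fragments that fit several copies can be divided between them. The Odc1 value may be affected by this, which was not tested.

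The 250 bases before the RefSeq start of Odc1 are shown with those of Amd1 and Oaz1, because these are the 3 members with TATAA on the gene strand between 40 and 16 bases before the start, a window chosen after the sequences had been read. Sequences are from the RefSeq promoter table of build GRCr8, which holds 9 of the 10 members. Each runs 5′ to 3′ on the gene's strand, and capitals mark TATAA (the TATA core), CACGTG (the E-box bound by Myc and Max), GGGCGG (the GC box) and TGACG (the core of a cAMP response element) on either strand.
Odc1, chr6:46058415-46058664, plus strand: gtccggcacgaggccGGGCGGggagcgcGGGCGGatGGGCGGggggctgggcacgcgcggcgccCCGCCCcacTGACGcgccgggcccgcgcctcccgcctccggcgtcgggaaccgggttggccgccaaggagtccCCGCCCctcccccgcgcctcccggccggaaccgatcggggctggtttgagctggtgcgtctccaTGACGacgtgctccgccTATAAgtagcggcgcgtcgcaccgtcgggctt
Amd1, chr20:45265983-45266232, minus strand: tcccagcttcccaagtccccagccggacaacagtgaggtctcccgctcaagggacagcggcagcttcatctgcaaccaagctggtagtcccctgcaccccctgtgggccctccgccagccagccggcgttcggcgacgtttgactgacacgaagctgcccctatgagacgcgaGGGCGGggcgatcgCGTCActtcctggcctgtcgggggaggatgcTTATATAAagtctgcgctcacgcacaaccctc
Oaz1, chr7:9536991-9537240, minus strand: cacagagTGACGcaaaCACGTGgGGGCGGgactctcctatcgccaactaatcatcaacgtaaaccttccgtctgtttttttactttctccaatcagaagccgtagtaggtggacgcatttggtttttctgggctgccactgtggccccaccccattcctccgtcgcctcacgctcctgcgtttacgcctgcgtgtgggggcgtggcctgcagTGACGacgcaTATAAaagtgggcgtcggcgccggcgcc
The TATAA of Odc1 begins 32 bases before the start, that of Amd1 29 bases and that of Oaz1 28 bases, and in Amd1 it overlaps a second match on the other strand. Of 33469 promoters, 2.48% hold TATAA in that window and strand. GGGCGG occurred 5 times before Odc1 and 1 time each before Amd1 and Oaz1, and 8 of the 9 members and 30.5% of all promoters hold it at least 1 time. CACGTG was found before Oaz1 and Srm and in 5.59% of all promoters, but not in the window of Odc1. Bases outside these 250 were not searched, so a CACGTG elsewhere in Odc1 would not be seen. TGACG was found before all 3 genes shown, before Sat1 and Sms, and in 18.2% of all promoters.

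The genes of the other synthesis enzymes had nearly equal levels under both diets. Amd1, which encodes S-adenosylmethionine decarboxylase, had 54.4 FPKM with casein and 58.3 with soy (log2 0.10). Srm, the spermidine synthase gene, had 25.5 and 26.2 FPKM (log2 0.04). Sms, the spermine synthase gene on chromosome X, had 12.0 and 12.8 FPKM (log2 0.09). Levels thus fell in the order Odc1, Amd1, Srm and Sms under both diets. The summed FPKM of the 4 synthesis genes was 289 with casein and 534 with soy, and without Odc1 it was 91.9 and 97.3.

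Acetylation and oxidation return spermine and spermidine towards putrescine. Sat1, which encodes the spermidine/spermine acetyltransferase whose products are exported or oxidised, was the second most abundant member with casein, at 284 FPKM, and had 279 FPKM with soy (log2 -0.03). Paox, the peroxisomal oxidase of acetylated polyamines, had 20.8 and 20.3 FPKM (log2 -0.04). Its row covers chromosome 1 from 199901587 to 199934938, the same coordinates as the row of Echs1, an enoyl-CoA hydratase at 234 and 286 FPKM, and whether fragments were shared between them was not tested. Smox, the oxidase that acts on spermine directly, was the least abundant member (3.02 FPKM with casein, 2.36 FPKM with soy). Its 1.28-fold lower value was the largest difference after Odc1, but 64.7% of the 3549 genes with a mean within 2-fold of that of Smox had a smaller absolute log2 value, so genes of this low level often differ as much.

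The antizymes and the antizyme inhibitor also had similar levels. Oaz1, which encodes the main antizyme, was the most abundant member with casein, at 412 FPKM, and had 398 FPKM with soy (log2 -0.05). Oaz2, a second antizyme, had 118 and 136 FPKM (log2 0.20). Azin1, which encodes an ornithine decarboxylase homologue without enzyme activity that binds antizyme in its place, had 29.9 and 30.0 FPKM (log2 0.00). The Odc1 level was 0.372 of the summed level of Oaz1 and Oaz2 with casein and 0.819 of it with soy. Against Oaz1 alone, Odc1 was at 0.479 of its level with casein and 1.098 of it with soy. The ratio of Odc1 to Azin1 was 6.59 with casein and 14.6 with soy. Against the acetyltransferase gene Sat1, the ratio of Odc1 was 0.695 with casein and 1.57 with soy. The summed antizyme level itself was 530 FPKM with casein and 534 with soy, so the ratios followed the level of Odc1. Values this close to equality had no fixed sign. Azin1 came out slightly lower with soy when log2 values were centred on all genes, and Sat1, Paox and Oaz1 slightly higher when they were centred on 12 housekeeping genes.

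Of 45 genes listed for neighbouring pathways, 42 were found and 36 passed the limit of 1 FPKM. Of these 36, 2 were at least 1.5-fold higher with soy and 2 lower, against the background of 3.43% and 8.08% of all genes, and their median log2 was 0.06. Mat2a had the highest log2 value of the 36. Its row is listed as RGD1560523 and described as S-adenosylmethionine synthase isoform type-2, the enzyme that makes S-adenosylmethionine, the substrate of the decarboxylase encoded by Amd1, and it was matched by that description after its values had been seen. Its level was 30.8 FPKM with casein and 57.3 FPKM with soy, a 1.86-fold higher value. The authors' deposited table marks it, with q = 0.0195, and it is the only gene of the 36 so marked.

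**Figure D3:**
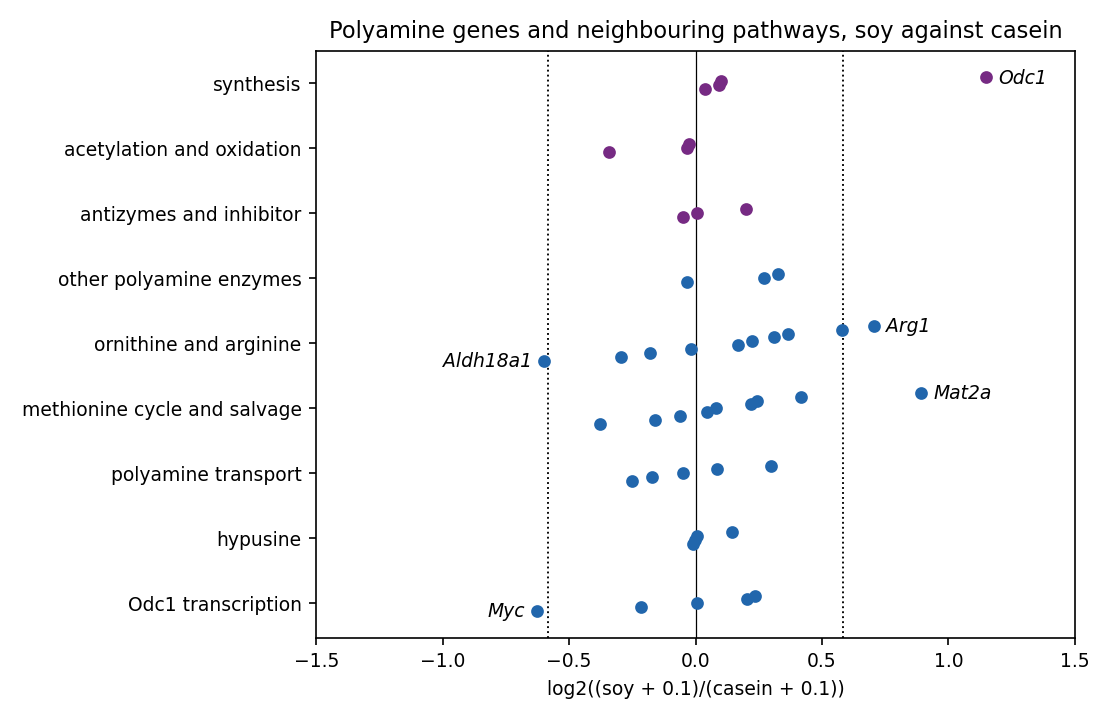
Log2 ratio of soy over casein (with 0.1 FPKM added to both) for each measured gene of the member groups (purple) and of the neighbouring pathways (blue), 1 row per list. Dotted lines mark 1.5-fold, and the genes beyond them are named: Odc1, Mat2a and Arg1 to the right, and Myc and Aldh18a1 to the left.

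Genes that supply or use ornithine went both ways, 6 higher with soy and 4 lower, with a median log2 of 0.20 over 10 measured genes. Arg1, the cytosolic arginase of the liver that makes ornithine, was low in both libraries (1.14 and 1.92 FPKM), and its 1.69-fold higher value came under the limit with a pseudocount of 1 (log2 0.45). Aldh18a1, which makes the precursor of proline and ornithine from glutamate, had 5.13 and 3.35 FPKM, 1.53-fold lower, and came under the limit with a pseudocount of 1 (log2 -0.49) or centred on housekeeping genes (-0.54). The mitochondrial arginase gene Arg2 had 54.9 and 64.0 FPKM, and the ornithine aminotransferase gene Oat 1059 and 1313 FPKM. The mitochondrial ornithine carrier gene Slc25a2 had 1.52 and 2.31 FPKM, a 1.53-fold higher value that the added 0.1 FPKM puts just under the limit (log2 0.58), and with a pseudocount of 0.01 the neighbouring genes counted as higher were 3. Arg2, Oat and Slc25a2 were named after their values had been seen, and each was higher with soy. Gatm, of the same list, was lower with soy (741 FPKM with casein and 604 with soy). Oat was thus more abundant than Odc1 under both diets.

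The methionine cycle and salvage list had a median log2 of 0.08 over 9 measured genes, with Mat2a the only one past 1.5-fold. Of the other polyamine enzymes, 3 were measured and all lay within 1.5-fold. Sat2, a relative of Sat1, had 62.5 and 78.3 FPKM, the agmatinase gene Agmat 40.3 and 48.7, and the second antizyme inhibitor gene Azin2, listed as LOC366473, 3.11 and 3.03. Below 1 FPKM were Aoc1, the diamine oxidase gene, at 0.344 and 0.0779 FPKM, and the testis antizyme gene Oaz3, at 0.0613 FPKM with casein and listed at 0 with soy. Transport genes had a median log2 of -0.05 over 5 measured genes, all within 1.5-fold. They ran from Slc3a2, the heavy chain of amino acid exchangers, at 110 and 92.0 FPKM, and the lysosomal polyamine exporter gene Atp13a2, at 11.7 and 10.3, to the vesicular polyamine transporter gene Slc18b1, at 9.97 and 12.3.

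Hypusine, an amino acid made from spermidine, is found in the translation factor eIF5A. The 4 genes of this use of spermidine were within 1.5-fold, with a median log2 of 0.00. Dhps, which transfers the spermidine part, had 21.9 and 21.8 FPKM, Dohh, which completes hypusine, 39.6 and 39.8, and the second factor gene Eif5a2 3.55 and 3.94.

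Among genes of Odc1 transcription, Myc, a known activator of Odc1, differed in the opposite direction to Odc1. Its level was 15.1 FPKM with casein and 9.72 FPKM with soy, a 1.55-fold lower value that came under the limit with a pseudocount of 1 (log2 -0.58) or centred on housekeeping genes (-0.57). In the authors' deposited table Myc has q = 0.523 and is not marked. Its partner Max, which the rule for named genes does not name, had 29.7 and 29.8 FPKM. In the same list Mxi1 had 44.0 and 50.7 FPKM and Mnt 8.51 and 7.33. Myc was the only gene of this list past 1.5-fold. Kap, an androgen-regulated gene of the proximal tubule, was at 8801 FPKM in the casein library and 13000.5 in the soy library, 1.48-fold higher. The authors' deposited table does not mark it.

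The genes most like Odc1 in level and difference were sought among 420 other named genes with status OK and a mean within 2-fold of that of Odc1, by the absolute difference of their log2 value over the 2 libraries. They were Adh6 (279 FPKM with casein and 552 with soy), Cryab (300.1 and 576), Hnmt (123 and 205), Mep1a (185 and 293) and Akr1c2 (289 and 447). The nearest, Adh6, differed from Odc1 by 0.16 on the log2 scale and the fifth by 0.52. Cryab, which encodes a small heat shock protein, is the only one of the 5 that the authors' deposited table marks, with q = 0.0120. None of the 5 was also among the nearest when genes of any level above the limit were allowed.

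The FPKM values summed to 643145 with casein and 656248 with soy, and their read depth is unknown. All 8 kidney markers passed the limit of 1 FPKM, so the tissue label is met. Markers of tubule parts and of other cell types moved beside Odc1. The summed level of 4 late proximal tubule genes was 1726 FPKM with casein and 2682 with soy. All 4 were higher, but only Slc7a13 passed 1.5-fold (1412 and 2246 FPKM). For 4 early ones the sum was 125 and 61.8 FPKM. All 4 were lower, 3 of them past 1.5-fold, while Slc6a19 had 15.3 and 13.7 FPKM. The 8 kidney markers went both ways, with 5 higher with soy and 3 lower. Only Lrp2 among them passed 1.5-fold (15.9 FPKM with casein and 24.7 with soy). The measured macrophage genes (5 of 6 listed, summed 123 and 59.0 FPKM), lymphocyte genes (6 of 8, 41.4 and 17.1), cell division genes (4 of 5, 12.8 and 3.91) and tubular injury genes (5 of 6, 6502 and 1608) were all lower with soy, and no marker found was at 0. The part of these shifts in the Odc1 difference was not tested, and in whole tissue fewer cells of a type and less RNA per cell cannot be told apart.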

How the data were processed

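Messenger RNA of kidney was measured in 1 library per diet. Per the submitters' processing notes, Bowtie, TopHat and Cufflinks were used, without versions. The deposited gene table gives FPKM per diet, made by the authors, and, per the file headers, a p-value with its q-value and a test status. The sources used here name neither the genome build nor the annotation nor any scaling between libraries. FPKM are not counts, so read depth and counting intervals are unknown, and fragments of near-identical genes may be divided between rows. The deposited log2 fold was not used, because it holds a placeholder where a value is 0.

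From these values log2((soy + 0.1)/(casein + 0.1)) was computed, which understates differences of low genes, and folds are ratios of the FPKM themselves. The 14077 genes reaching a mean FPKM of 1 were used, and a limit of 1.5-fold was applied as a description. No test was run. The members and lists were chosen with earlier results of these data known. Rows were matched by symbol, then by RefSeq accession or synonym, then by product description. Named genes are all members, each neighbouring gene past 1.5-fold or otherwise the 3 with the largest difference in its list, Kap and the 5 genes most like Odc1. A gene that the rule also names is not reported here. Symbols that are placeholders and short RNAs were left out of the last. Alternatives were pseudocounts of 0.01 and 1, limits of 5 FPKM or none, 2 centrings, status OK only, a higher limit of 2-fold and a lower one, FPKM divided by their sum, and 4 omissions added after the data were seen. Computation used pandas 2.3.3 and numpy 2.4.6 under Python 3.11.15, with figures by matplotlib 3.10.9.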

Additional observations from a re-analysis of the deposited data

How the results depend on the processing

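The log2 value of Odc1 lay between 1.13 and 1.21 under the pseudocounts and centrings, the alternatives that could move it, and it was also past 2-fold. At the lower fold limit tried, 1 member, Smox, was lower and 1, Odc1, higher. At that limit 13.9% of all genes were lower and 9.70% higher, so nothing is read from the Smox value. Depth and replication limit every value: the number of fragments is unknown and each diet is 1 library. No paired analysis was possible because each diet has 1 library.

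The counts of neighbouring genes, 2 higher and 2 lower, rest on values near the limit. They were 1 and 0 with a pseudocount of 1, 1 and 1 when a mean FPKM of 5 was required, and 0 and 0 at 2-fold. They were 6 and 3 at the lower fold limit, 3 and 4 with no limit on low values, 3 and 0 with centring on housekeeping genes, and 3 and 2 with a pseudocount of 0.01. Without rows matched by description, added after the data were seen, 1 was higher. Over all genes, 483 higher and 1137 lower became 255 and 463 at 5 FPKM, 1067 and 2361 with no limit, 218 and 505 at 2-fold, and 1365 and 1954 at the lower fold limit. The cause was not tested beyond what each limit removes by construction.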

Other observations

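Without the 2-fold window around the mean of Odc1, the named genes with the log2 value nearest to that of Odc1 were all of low level. The limit of 1 FPKM was kept. Cyp1a1, a cytochrome P450 induced by the aryl hydrocarbon receptor, had 2.21 FPKM with casein and 4.82 with soy. Cyp2c11, known as the main male form of cytochrome P450 in rat liver, had 1.40 and 3.15 FPKM. The signalling factor gene Wnt7b had 3.85 and 8.48 FPKM, B3gat1 1.05 and 2.43, and Lypd2 5.37 and 12.3. In the authors' deposited table the q of these 5 genes runs from 0.156 to 0.383, and none is marked.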
